A study of Mus musculus with 6 samples.

Results

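The mRNAs described are those of 31 genes around the mitochondrial oxidation of pyruvate, chosen by gene symbol out of the 41709 genes of the deposited table. They are 13 enzyme subunits of the tricarboxylic acid (TCA) cycle without complex II, 6 genes for pyruvate entry and the pyruvate dehydrogenase (PDH) complex, 6 genes for the kinases and phosphatases that switch this complex off and on, and 6 genes of the malate-aspartate shuttle and linked carriers. All 31 passed the filter on low values (a mean of at least 1 TPM, the share of transcripts that a gene takes in a library after correction for its length) that left 11611 genes for testing. Of the 31 mRNAs, only *Idh2* and *Pdk3* passed an adjusted p under 0.05 (limma) under all the scalings of the libraries tried. Both were lower in muscles with LrpprcP27A than with LrpprcWT. Their values stayed below 0 in all fits that tested them, but both missed an adjusted p under 0.05 with LrpprcWT replicate 3 left out or with no filter on low values, and *Pdk3* also without LrpprcWT replicate 1 or LrpprcP27A replicate 3. *Pdhb* was lower at this threshold on the deposited scale, and none of the members was higher there. *Pdk4*, the most variable member, differed more between the replicates than between the groups.

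The samples were 6 tibialis anterior (TA) muscles of male C57BL/6J mice, 3 electroporated with a pCMV6 plasmid for Flag-tagged wild-type Lrpprc (LrpprcWT) and 3 with the same plasmid for LrpprcP27A, in which proline 27 is replaced by alanine so that this residue resists hydroxylation. Lrpprc is an RNA-binding protein that stabilises mRNAs of the mitochondrial genome, and the comparison asks what changes in muscle when the variant is expressed in place of the wild-type protein. The contralateral TA muscles of a mouse received the 2 plasmids, and the muscles were collected 14 days later. The study used mice of 4 and of 27 months, and the sources used here do not state outright which of these ages was sequenced. Endogenous Lrpprc was present in both groups, the promoter of the plasmid is not restricted to one cell type, and electroporation in general reaches only a part of the fibres.

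PDH links glycolysis to the TCA cycle by turning pyruvate into acetyl-CoA, after pyruvate has crossed the inner mitochondrial membrane through the pyruvate carrier. The cycle then oxidises acetyl-CoA and hands the electrons to the respiratory chain, while the malate-aspartate shuttle carries the electrons of cytosolic NADH into the matrix. In skeletal muscle the PDH kinases set the choice of fuel, and *Pdk4* is known to rise when fatty acids are the main fuel, as in fasting.

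Facts of the libraries that touch these genes were few. TPM are shares of a library that sum to 1000000, so that the depth is unknown and a gene's value also moves with the rest of the library. Transcripts of the mitochondrial genome took between 36.0% and 45.2% of the TPM in the LrpprcWT libraries and between 44.2% and 46.1% in the LrpprcP27A libraries. Genes whose symbol starts with Rn and a digit, the pattern used here for ribosomal RNA, took between 0.910% and 1.78% and between 3.74% and 4.48%. The pattern can also take symbols of other noncoding RNAs. LrpprcWT replicate 3 stood apart, with the lowest mitochondrial share and 75.2 TPM of *Lrpprc*, where the other LrpprcWT libraries had 35.1 and 37.0 TPM, and the members called without it are given with the counts. *Lrpprc* stood between 26.0 and 29.7 TPM with LrpprcP27A, and reads from the plasmid and from the endogenous gene cannot be told apart. The markers of skeletal muscle fibres were abundant in all the libraries, with a summed level of 8 genes between 81720 and 95030 TPM, and none of 5 liver genes passed the filter. In bulk muscle, fewer cells of a type and less RNA per cell cannot be told apart.

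LrpprcP27A and LrpprcWT muscles were tested against each other in limma on log2(TPM + 1), a scale on which the changes of low genes are understated, and p-values were adjusted by Benjamini-Hochberg over all 11611 genes. At an adjusted p under 0.05, 3 of the 31 members were lower, where 23.3% of all tested genes were lower, and 0 members were higher, where 1.34% of all tested genes were higher. In 14 members, all lower with LrpprcP27A, the unadjusted p was under 0.05, beside 44.2% of all tested genes lower and 2.59% higher. In the Kruskal-Wallis test 0 members passed after adjustment in either direction, and without adjustment it passes at 0.05 exactly the genes whose groups do not overlap. The groups did not overlap in 14 members, all lower with LrpprcP27A, beside 47.6% of all tested genes lower and 3.51% higher, so that this share of members was near that of all genes. The median log2 fold change of the members was -0.24, with 28 of 31 below 0, and that of all tested genes was -0.32. Only 7 members lay below the median of all genes. LrpprcWT replicate 2 was nearer to the LrpprcP27A muscles than the other LrpprcWT muscles in many members, and without it 19 members were lower, beside 59.5% of all tested genes lower and 2.62% higher. Without LrpprcWT replicate 3 the count was 0, beside 0.129% lower and 0.0258% higher (15 and 3 genes). Without LrpprcWT replicate 1 or LrpprcP27A replicate 3 it was 1, beside 2.51% and 3.79% of all tested genes lower and 0.224% and 0.241% higher. Without LrpprcP27A replicate 1 or 2 it was 2, beside 14.5% and 4.34% lower and 1.27% and 0.293% higher, and 0 members were higher in any of these 6 fits.

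The deposited scale and a scaling by the median of ratios, which sets the median gene of the libraries equal, therefore gave different directions for most members. With median-of-ratios scaling the median log2 fold change was 0.13 for the members and -0.0047 for all tested genes, and 7 of the 31 members were below 0. In this scaling 2 members were lower at an adjusted p under 0.05 (limma), beside 6.03% of all tested genes, and 0 were higher, beside 5.25%. The summed TPM of the 31 genes was 9294, 8694 and 10640 in the LrpprcWT muscles and 8115, 8408 and 8589 in the LrpprcP27A muscles. The members' sum was thus lower in each LrpprcP27A library than in any LrpprcWT library, as deposited. The median-of-ratios factors of the libraries were 1.23, 0.974 and 1.25 with LrpprcWT and 0.897, 0.851 and 0.899 with LrpprcP27A. Divided by these, each LrpprcP27A sum was above each LrpprcWT sum. *Slc25a4*, whose groups overlapped, alone took between 2722 and 3339 TPM.

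**Figure D1:**
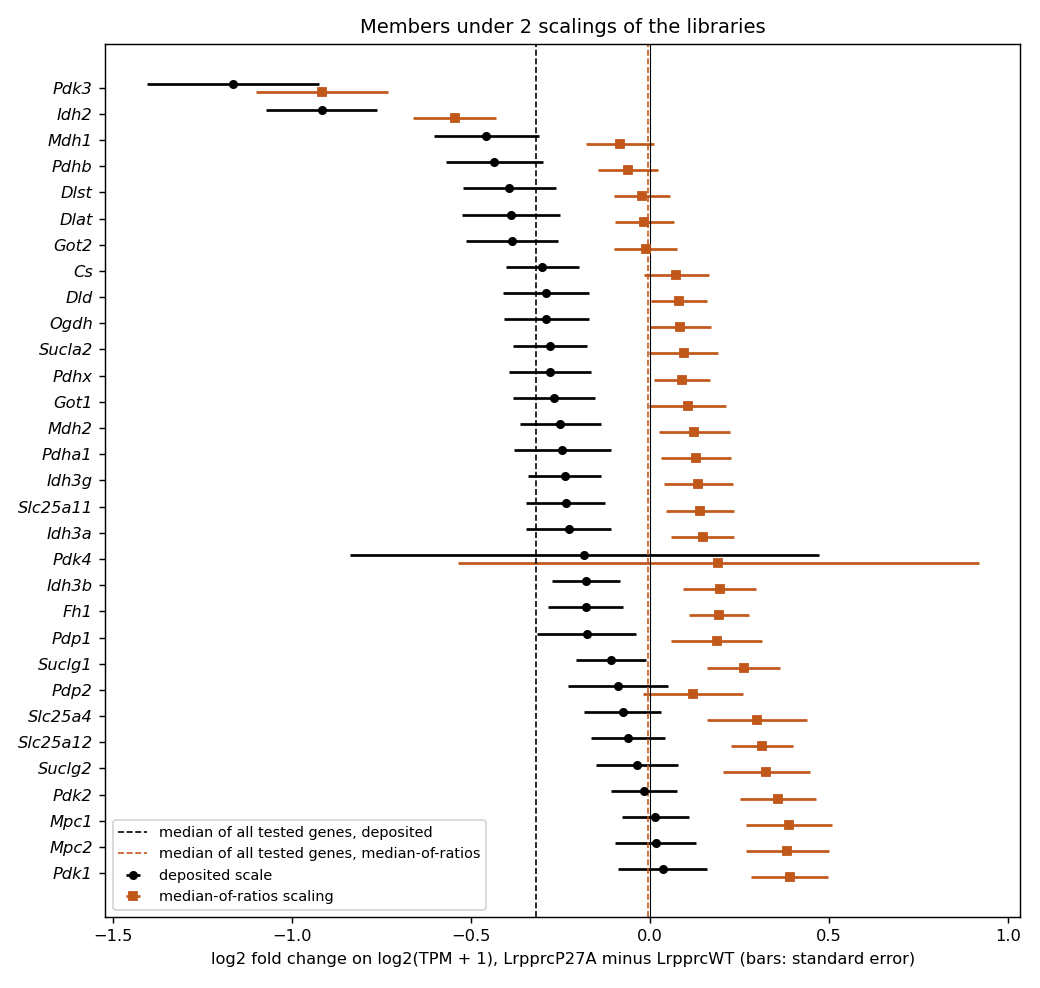
Log2 fold change (LrpprcP27A minus LrpprcWT, on log2(TPM + 1)) of the 31 members with its standard error, as deposited (black circles) and after median-of-ratios scaling (orange squares), with dashed lines at the median of all tested genes for each scale. *Pdk3* and *Idh2* lay well below both medians (-1.17 and -0.92 as deposited), while the other members lay around or above them.

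Libraries with the same number were taken as paired muscles, on grounds given with the processing. With the replicate number as a block 9 members were lower (limma, adjusted p under 0.05), beside 48.4% of all tested genes, and 0 were higher, beside 2.69%. The 6 members added were *Mdh1* (adjusted p = 0.00585), *Got2* (adjusted p = 0.0148), *Dlst* (adjusted p = 0.0151), *Dlat* (adjusted p = 0.0158), *Cs* (adjusted p = 0.0424) and *Ogdh* (adjusted p = 0.0498). With the block and median-of-ratios scaling together, none of these 6 passed, and 2 members were lower, *Idh2* and *Pdk3*, beside 15.8% of all tested genes. In that fit 7 members were higher, beside 13.4% of all tested genes. They were *Mpc1*, *Mpc2*, *Pdk1*, *Pdk2*, *Slc25a12*, *Suclg1* and *Suclg2*, of which only *Mpc1*, *Mpc2* and *Pdk1* had a log2 fold change above 0 as deposited.

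The TCA cycle enzymes were led by *Idh2*, which encodes the NADP-dependent isocitrate dehydrogenase of the mitochondrial matrix and supplies NADPH there. *Idh2* stood at 129.2, 105.8 and 144.6 TPM with LrpprcWT and at 60.5, 59.9 and 79.2 TPM with LrpprcP27A. The groups did not overlap, and each LrpprcP27A muscle was below the LrpprcWT muscle of its pair, with ratios of 0.468, 0.566 and 0.548. The log2 fold change was -0.92 with a standard error (SE) of 0.15 and a 95% confidence interval from -1.27 to -0.57 (limma, adjusted p = 0.0147). With median-of-ratios scaling it was -0.55 (limma, adjusted p = 0.0348). The gene (ENSMUSG00000030541) lies on the minus strand of chromosome 7, from 79741431 to 79765535 in GRCm39, and 29.4% of its exon bases also lie in exons of *Zfp710* on the other strand. *Zfp710* had a mean of 8.77 TPM and a log2 fold change of -0.09 (limma, adjusted p = 0.573), and the sources do not state whether reads were counted by strand.

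The NAD-dependent isocitrate dehydrogenase, which carries the flux of the cycle at this step, showed smaller differences than *Idh2*. Its catalytic subunit *Idh3a* stood at 324.7, 257.8 and 312.5 TPM with LrpprcWT and at 276.2, 243.7 and 242.1 TPM with LrpprcP27A, and the groups overlapped. The log2 fold change was -0.23 for *Idh3a*, -0.18 for *Idh3b* and -0.24 for *Idh3g*, the regulatory subunits, and none passed the test (limma, adjusted p between 0.0996 and 0.161). *Idh3b* stood at 275.9, 259.5 and 284.8 TPM with LrpprcWT and at 254.6, 238.9 and 230.3 TPM with LrpprcP27A, without overlap of the groups. *Idh3g* stood at 243.4, 223.4 and 258.9 TPM with LrpprcWT and at 214.4, 207.2 and 192.5 TPM with LrpprcP27A, again without overlap. All of these 3 log2 fold changes were above 0 with median-of-ratios scaling, at 0.15, 0.19 and 0.14.

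A ratio of 2 genes within a library is not moved by a factor applied to the whole library, as in median-of-ratios scaling, although quantile normalization can move it. The ratio of *Idh2* to *Idh3a* was 0.424 ± 0.0344 (SD, n = 3) with LrpprcWT and 0.264 ± 0.0563 (SD, n = 3) with LrpprcP27A, and the groups did not overlap (p = 0.1 in a two-sided exact permutation test, which gives no smaller value with 3 against 3). The same held for the ratio of *Idh2* to *Cs*, with 0.332 ± 0.0237 (SD, n = 3) and 0.217 ± 0.0430 (SD, n = 3). The ratios and shares were chosen after values were seen, and how often ratios of other genes do not overlap was not computed. Those of *Mdh1* to *Mdh2*, *Got1* to *Got2* and *Pdk2* to *Pdha1* were among those that overlapped. Of the 14 computed, 6 did not overlap between the groups, each with a Benjamini-Hochberg adjusted p of 0.233 in the exact permutation test. The design therefore cannot reach 0.05 in this test.

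The cytosolic enzyme *Idh1*, no member of the cycle itself, was at 20.7 ± 3.61 TPM (SD, n = 3) with LrpprcWT and 11.9 ± 1.27 TPM (SD, n = 3) with LrpprcP27A. It fell by 0.74 on the log2 scale (limma, adjusted p = 0.0212), and by 0.39 with median-of-ratios scaling, where it did not pass (adjusted p = 0.0518). Both NADP-dependent isocitrate dehydrogenases were therefore below the LrpprcWT muscles in each pair.

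**Figure D2:**
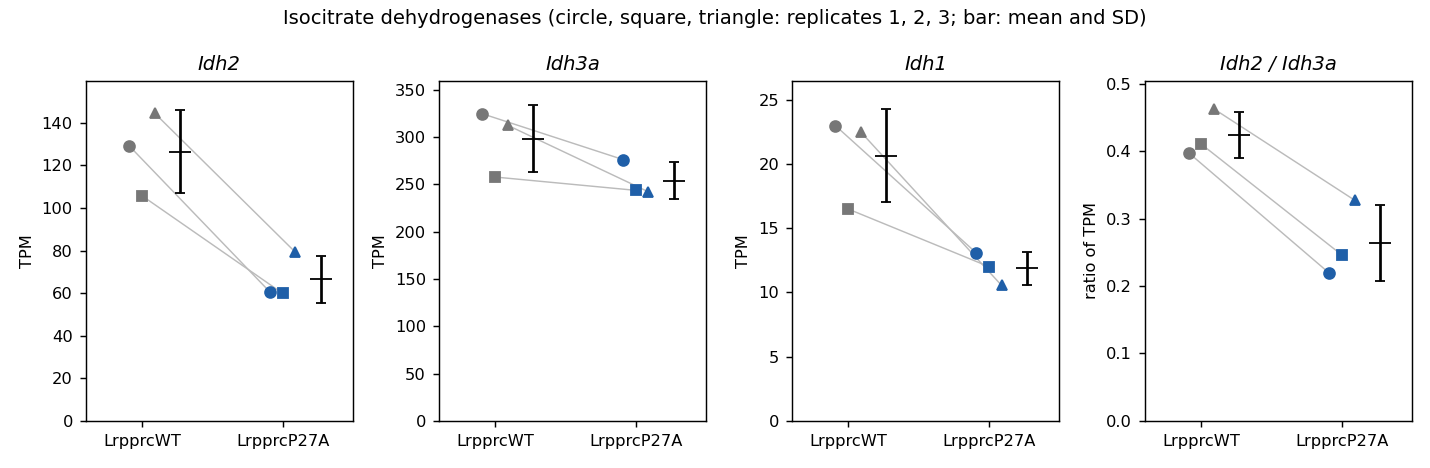
TPM of *Idh2*, *Idh3a* and *Idh1* and the ratio of *Idh2* to *Idh3a* in each muscle, with lines joining libraries of the same replicate number and bars for the mean and SD (n = 3). The ratio of *Idh2* to *Idh3a* lay between 0.398 and 0.463 in the LrpprcWT muscles (grey) and between 0.219 and 0.327 in the LrpprcP27A muscles (blue).

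None of the other 9 TCA cycle enzymes passed the test on the deposited scale with all 6 libraries and no block. *Cs*, the citrate synthase that opens the cycle, had a log2 fold change of -0.30 (SE 0.10, limma, adjusted p = 0.0573). The genes of the 2-oxoglutarate dehydrogenase complex were close to each other, with -0.29 for *Ogdh*, its first enzyme, -0.39 for *Dlst*, its second, and -0.29 for *Dld*, the dehydrogenase that it shares with PDH. *Dlst* stood at 89.9, 72.3 and 99.1 TPM with LrpprcWT and at 67.6, 65.3 and 63.8 TPM with LrpprcP27A (limma, adjusted p = 0.0543). Its groups did not overlap, but LrpprcWT replicate 2 was nearer to the LrpprcP27A muscles than to the other LrpprcWT muscles. With median-of-ratios scaling the values for *Cs*, *Ogdh* and *Dld* were above 0, between 0.07 and 0.08, and *Dlst* was at -0.02.

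None of the succinyl-CoA ligase subunits passed the test. *Sucla2*, the ADP-forming subunit, stood at 270.1, 243.0 and 286.4 TPM with LrpprcWT and at 206.4, 229.6 and 220.9 TPM with LrpprcP27A, and its log2 fold change was -0.28 (SE 0.10, limma, adjusted p = 0.0710). *Suclg2*, the GDP-forming subunit, had a log2 fold change of -0.04 and overlapping groups, as did the shared subunit *Suclg1* with -0.11. The ratio of *Sucla2* to *Suclg2* was 10.0 ± 0.825 (SD, n = 3) with LrpprcWT and 8.48 ± 0.643 (SD, n = 3) with LrpprcP27A, without overlap (exact permutation test, two-sided, p = 0.1, adjusted p = 0.233). *Fh1*, the fumarase, and *Mdh2*, the malate dehydrogenase of the matrix, had log2 fold changes of -0.18 and -0.25 and overlapping groups.

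**Figure D3:**
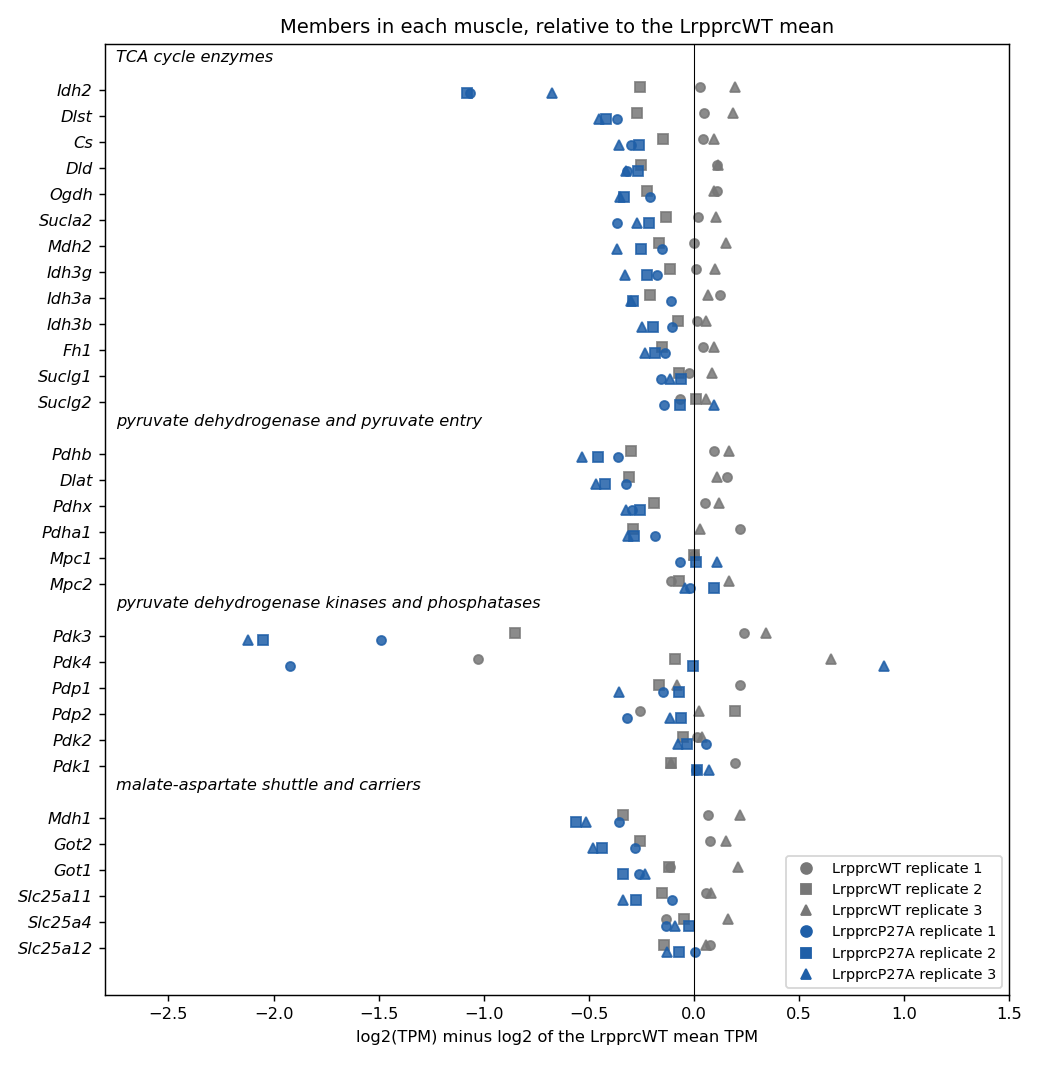
Each member in each of the 6 muscles as log2 of its TPM minus log2 of its mean TPM with LrpprcWT (grey, LrpprcWT; blue, LrpprcP27A; shapes give the replicate number), grouped by role. The LrpprcP27A points of *Idh2* and *Pdk3* lie left of all their LrpprcWT points, those of *Pdk4* spread by replicate with 119.9, 452.4 and 851.3 TPM, and LrpprcWT replicate 2 lies left of the other LrpprcWT muscles in many members.

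In the PDH complex, *Pdhb*, the beta subunit of its first enzyme, passed the test. *Pdhb* stood at 195.0, 148.1 and 204.6 TPM with LrpprcWT and at 141.9, 132.8 and 126.3 TPM with LrpprcP27A, without overlap. Its log2 fold change was -0.43 (SE 0.14, limma, adjusted p = 0.0480), and with median-of-ratios scaling it was -0.06 (limma, adjusted p = 0.637). The call was also lost with a minimum mean TPM of 5 (adjusted p = 0.0518), and when any library other than LrpprcWT replicate 2 was left out. Of the exon bases of *Pdhb*, 27.8% are shared with *Pxk* on the other strand, a gene at a mean of 8.88 TPM.

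The other subunits did not pass. *Pdha1*, the alpha subunit that the kinases phosphorylate, stood at 519.5, 364.3 and 454.5 TPM with LrpprcWT and at 392.8, 365.6 and 358.9 TPM with LrpprcP27A, and the groups overlapped (log2 fold change -0.25, SE 0.14, limma, adjusted p = 0.173). *Dlat*, the acetyltransferase of the core, stood at 139.5, 101.1 and 134.7 TPM with LrpprcWT and at 99.8, 93.3 and 90.4 TPM with LrpprcP27A. The groups did not overlap in *Dlat*, and its log2 fold change was -0.39 (SE 0.14, limma, adjusted p = 0.0638). *Pdhx*, which binds *Dld* to the core, stood at 54.7, 46.2 and 57.3 TPM with LrpprcWT and at 43.0, 44.2 and 42.1 TPM with LrpprcP27A, also without overlap (log2 fold change -0.28, SE 0.12, limma, adjusted p = 0.0920). The ratio of *Pdha1* to *Dlat* was 3.57 ± 0.178 (SD, n = 3) with LrpprcWT and 3.94 ± 0.0254 (SD, n = 3) with LrpprcP27A, higher without overlap (exact permutation test, two-sided, p = 0.1).

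Both subunits of the mitochondrial pyruvate carrier had overlapping groups. *Mpc1* stood at 253.9, 253.8 and 254.3 TPM with LrpprcWT and at 242.2, 255.2 and 273.5 TPM with LrpprcP27A, and its log2 fold change was 0.01 with a 95% confidence interval from -0.20 to 0.23. *Mpc2* had 0.02, from -0.24 to 0.27. The ratio of *Mpc1* to *Cs* was 0.672 ± 0.0606 (SD, n = 3) with LrpprcWT and 0.837 ± 0.0736 (SD, n = 3) with LrpprcP27A, without overlap (exact permutation test, two-sided, p = 0.1).

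Of the PDH kinases, *Pdk3* was the least abundant and the only one that passed the test. *Pdk3* stood at 4.28, 2.01 and 4.60 TPM with LrpprcWT and at 1.29, 0.876 and 0.834 TPM with LrpprcP27A, and the groups did not overlap. The log2 fold change was -1.17 (SE 0.24, limma, adjusted p = 0.0202) with a 95% confidence interval from -1.71 to -0.62, and the ratio of the mean TPM was 0.276. With median-of-ratios scaling it was -0.92 (limma, adjusted p = 0.0331). *Pdk3* (chromosome X, 92789513 to 92876389, minus strand, GRCm39) is low in these muscles, and the number of reads behind each value is unknown. It made up between 0.0742% and 0.826% of the summed TPM of the 4 kinases.

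*Idh2* and *Pdk3* both lost their call when LrpprcWT replicate 3 was left out (limma, adjusted p = 0.0892 and 0.105). *Pdk3* was also lost without LrpprcWT replicate 1 (adjusted p = 0.0650) and without LrpprcP27A replicate 3 (adjusted p = 0.0577). With all genes of the table tested and no filter, *Idh2* (adjusted p = 0.0610), *Pdk3* (adjusted p = 0.0678) and *Pdhb* (adjusted p = 0.0935) did not pass.

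*Pdk4*, the kinase of fasted and fat-burning muscle, was the most abundant kinase over the libraries together. *Pdk4* stood at 223.1, 426.3 and 714.2 TPM with LrpprcWT and at 119.9, 452.4 and 851.3 TPM with LrpprcP27A. The LrpprcWT values lay within the range of the LrpprcP27A values, while the 2 muscles of replicate 1 were the lowest and the 2 muscles of replicate 3 the highest. The log2 fold change was -0.18 with an SE of 0.66 and a 95% confidence interval from -1.67 to 1.30 (limma, adjusted p = 0.825), and with the replicate block the adjusted p was 0.342. The pooled SD of *Pdk4* within groups was 1.18 on the log2 scale, the rank 11 from the top among 11611 genes, beside a median of 0.124 over the members and 0.182 over all tested genes. The next member by this measure was *Pdk3*, with 0.371. *Pdk4* lies on the minus strand of chromosome 6, from 5483097 to 5496339 in GRCm39.

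*Pdk2*, a kinase expressed in most tissues, varied little where *Pdk4* varied most. *Pdk2* stood at 270.6, 258.5 and 274.5 TPM with LrpprcWT and at 278.6, 261.6 and 254.4 TPM with LrpprcP27A, with a log2 fold change of -0.02 (95% confidence interval from -0.23 to 0.19). *Pdk1* stood at 19.7, 15.9 and 15.9 TPM with LrpprcWT and at 17.3, 17.3 and 18.0 TPM with LrpprcP27A, with a log2 fold change of 0.04 (95% confidence interval from -0.25 to 0.32). As a share of the 4 kinases, *Pdk4* made up 43.1%, 60.7% and 70.8% with LrpprcWT and 28.8%, 61.8% and 75.7% with LrpprcP27A (exact permutation test, two-sided, p = 1.0). The order of *Pdk2* and *Pdk4* thus turned between replicate 1, where *Pdk2* was the higher, and replicates 2 and 3 in both groups.

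**Figure D4:**
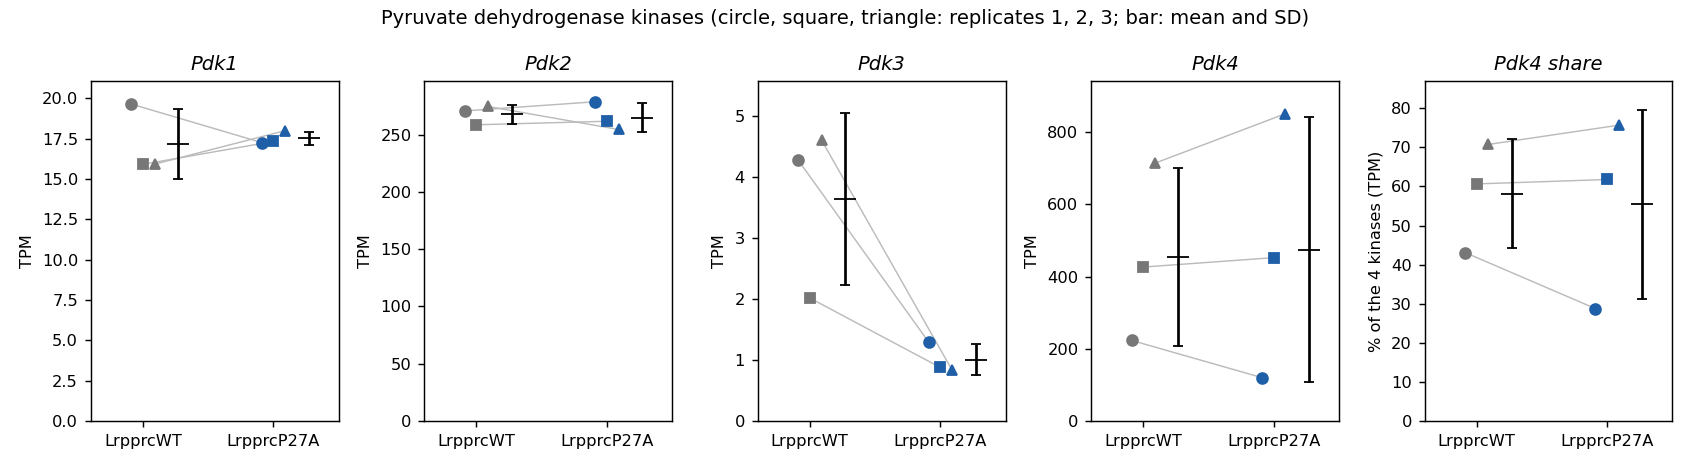
TPM of the 4 pyruvate dehydrogenase kinases in each muscle, and the share of *Pdk4* in their summed TPM, with lines joining libraries of the same replicate number and bars for the mean and SD (n = 3). *Pdk4* follows the replicate number in both groups, from 119.9 and 223.1 TPM in replicate 1 to 714.2 and 851.3 TPM in replicate 3, while *Pdk2* stays between 254.4 and 278.6 TPM.

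The phosphatases that reactivate PDH did not pass. *Pdp1*, the calcium-stimulated phosphatase of muscle, was at 33.0 ± 4.79 TPM (SD, n = 3) with LrpprcWT and 29.0 ± 2.91 TPM (SD, n = 3) with LrpprcP27A, with a log2 fold change of -0.18. *Pdp2* was low, at 1.43 ± 0.221 TPM (SD, n = 3) and 1.28 ± 0.118 TPM (SD, n = 3), with a log2 fold change of -0.09. *Pdp1* made up 95.7% of both together in each group.

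*Idh2* and *Pdk3* passed the test as lower under both scalings, and *Pdk4* followed the replicate. The sequences upstream of these genes are shown as a basis for motif searches. They are the 250 bases before the RefSeq start in GRCm38.p6, 5′ to 3′ on the minus strand, at chr7:80115351-80115600 for *Idh2*, chrX:93832151-93832400 for *Pdk3* and chr6:5496279-5496528 for *Pdk4*, and capitals mark CCAAT or its reverse complement ATTGG.
Idh2: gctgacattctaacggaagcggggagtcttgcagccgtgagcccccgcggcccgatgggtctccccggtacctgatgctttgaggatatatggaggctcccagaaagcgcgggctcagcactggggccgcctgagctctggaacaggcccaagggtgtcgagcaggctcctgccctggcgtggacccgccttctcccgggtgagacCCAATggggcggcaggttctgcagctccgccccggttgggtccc
Pdk3: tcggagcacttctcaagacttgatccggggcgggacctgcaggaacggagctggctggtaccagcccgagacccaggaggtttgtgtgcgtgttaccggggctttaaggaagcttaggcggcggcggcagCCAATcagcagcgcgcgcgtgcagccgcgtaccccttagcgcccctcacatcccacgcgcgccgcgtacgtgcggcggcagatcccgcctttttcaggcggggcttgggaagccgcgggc
Pdk4: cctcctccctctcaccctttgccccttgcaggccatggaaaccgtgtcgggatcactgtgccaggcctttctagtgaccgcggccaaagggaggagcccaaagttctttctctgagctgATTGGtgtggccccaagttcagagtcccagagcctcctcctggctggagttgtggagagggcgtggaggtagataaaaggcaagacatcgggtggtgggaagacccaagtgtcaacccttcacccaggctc

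The letters CCAAT begin 44 bases before the start in *Idh2* and 120 bases before it in *Pdk3*, and their reverse complement lies 131 bases before it in *Pdk4*. Among the 29 members in the promoter table, 19 held CCAAT on either strand within 250 bases before and 50 bases after the start (65.5%), beside 41.1% of 27025 genes. This motif was searched after the sequences had been seen. The core site of estrogen-related receptors (AAGGTCA) was in 2 members (*Ogdh* and *Got1*), the site of nuclear respiratory factor 1 (GCGCATGCG) in 1 (*Ogdh*), and the ETS site of GABP (CCGGAAGTG) in 1 (*Dlst*). Among all genes of the table these 3 motifs were in 5.38%, 1.95% and 2.25%. *Idh3a* and *Pdp1* had no entry in the table.

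The malate-aspartate shuttle genes were below the LrpprcWT level on the deposited scale, and none passed the test with all 6 libraries and no block. Without LrpprcWT replicate 2, *Mdh1*, *Got2*, *Slc25a11* and *Got1* passed as lower (limma, adjusted p between 0.0044 and 0.044), beside 59.5% of all tested genes. *Mdh1*, the cytosolic malate dehydrogenase, stood at 499.2, 378.0 and 554.7 TPM with LrpprcWT and at 372.4, 323.9 and 333.9 TPM with LrpprcP27A. The groups did not overlap, and the log2 fold change was -0.46 (SE 0.15, limma, adjusted p = 0.0509), but -0.08 with median-of-ratios scaling. *Got2*, the aspartate aminotransferase of the matrix, stood at 336.1, 266.6 and 354.3 TPM with LrpprcWT and at 262.9, 235.7 and 228.8 TPM with LrpprcP27A, and had a log2 fold change of -0.39 (SE 0.13, limma, adjusted p = 0.0550). *Got1*, its cytosolic counterpart, stood at 313.6, 312.5 and 392.8 TPM with LrpprcWT and at 282.9, 269.1 and 288.8 TPM with LrpprcP27A, with -0.27 (SE 0.12, limma, adjusted p = 0.101). Both aminotransferases were thus without overlap on the deposited scale, and with median-of-ratios scaling *Got2* was at -0.01 and *Got1* at 0.11.

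The carriers of the shuttle overlapped between the groups. *Slc25a11*, the oxoglutarate carrier, had a log2 fold change of -0.24, and *Slc25a12*, the aspartate-glutamate carrier, had -0.06. *Slc25a4*, the ADP/ATP carrier of muscle and the most abundant member, stood at 2723, 2887 and 3339 TPM with LrpprcWT and at 2722, 2931 and 2805 TPM with LrpprcP27A, with a log2 fold change of -0.08 (95% confidence interval from -0.32 to 0.17). *Slc25a5*, the ADP/ATP carrier of most other cell types, fell by 1.03 on the log2 scale as deposited (limma, adjusted p = 0.0333) and by 0.67 with median-of-ratios scaling, where it did not pass (adjusted p = 0.0817). The ratio of *Slc25a4* to *Slc25a5* was 43.9 ± 17.8 (SD, n = 3) with LrpprcWT and 83.9 ± 20.6 (SD, n = 3) with LrpprcP27A, without overlap (exact permutation test, two-sided, p = 0.1).

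Other genes of the same metabolism moved in both directions. Of 14 other TCA cycle and anaplerotic enzymes tested, 2 fell and 3 rose on the deposited scale. *Idh1* fell, as did *Gpt*, the cytosolic alanine aminotransferase, by 0.53 (limma, adjusted p = 0.0289), but with median-of-ratios scaling *Gpt* was at -0.17 (adjusted p = 0.166) and 0 of the 14 were lower. The genes that rose were *Me1*, the cytosolic malic enzyme, with 0.93 (limma, adjusted p = 0.0240), *Pcx*, the pyruvate carboxylase, with 0.51 (limma, adjusted p = 0.0246), and *Gpt2*, the mitochondrial alanine aminotransferase, with 0.66 (limma, adjusted p = 0.0485). These 3 also rose with median-of-ratios scaling, by 1.30, 0.86 and 1.03 (limma, adjusted p between 0.0259 and 0.0395).

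Of 6 genes of the branched-chain ketoacid dehydrogenase, a complex built like PDH, 0 passed in either direction, with a median log2 fold change of -0.01. Likewise 0 of 8 genes for the supply of lipoate and thiamine, cofactors of both complexes, passed, with a median of -0.25. Of 7 other mitochondrial carriers only *Slc25a5* was lower, and 0 were higher. Of 13 regulators of oxidative genes and of *Pdk4*, 1 was lower, *Hif1a*, at -0.91 (limma, adjusted p = 0.0289), and 0 were higher. With median-of-ratios scaling *Hif1a* was at -0.58 and did not pass (adjusted p = 0.0609). With the replicate block 6 of the 13 regulators were lower, beside 48.4% of all tested genes, and 0 were higher, beside 2.69%. *Gabpa* was lower in each pair (limma, adjusted p = 0.00822). *Ppargc1a* passed (limma, adjusted p = 0.0160), but its groups overlapped and it was higher with LrpprcP27A in pair 2 (ratio 1.22). It did not pass without the block (adjusted p = 0.324) or with the block and median-of-ratios scaling (adjusted p = 0.462). Also lower with the block were 3 of the 7 carriers, 2 of the 8 cofactor genes and 6 of the 14 other enzymes, of which 3 were higher. With the block and median-of-ratios scaling together these 4 lower counts were 1, 1, 0 and 2, beside 15.8% of all tested genes. The higher counts were 1, 0, 1 and 4, beside 13.4%.

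Markers of other cell types moved with the groups. All 6 fibroblast genes tested were lower with LrpprcP27A, with a summed level between 949.7 and 1569 TPM in the LrpprcWT muscles and between 243.7 and 548.3 TPM in the LrpprcP27A muscles. All 6 macrophage genes were lower, with sums between 261.4 and 511.5 TPM and between 88.4 and 173.1 TPM. Of 6 genes of satellite cells and developing fibres, 5 were lower, with sums between 80.9 and 151.7 TPM and between 26.8 and 42.2 TPM. Endothelial genes were lower in 2 of 6, with sums between 153.6 and 274.0 TPM and between 114.8 and 156.9 TPM, and adipocyte genes in 1 of 3 tested, which was *Fabp4*, a gene that endothelial cells also express. *Fabp4* made up most of the adipocyte sums, between 76.6 and 111.8 TPM and between 51.9 and 68.9 TPM, and *Adipoq* and *Cidec* were at 0.06 and 0.25 and did not pass. Of 8 fibre genes 1 was lower, *Myh2*, the myosin of type 2a fibres, at -1.16 (limma, adjusted p = 0.0236), and 1 was higher, *Actn3*. With median-of-ratios scaling the lower calls were 4 of 6 fibroblast genes, 2 of 6 macrophage genes, 4 of 6 genes of satellite cells and developing fibres and 0 of the endothelial, adipocyte and fibre genes (*Myh2* adjusted p = 0.0768). With the replicate block on the deposited scale 5 of 6 endothelial genes and 6 of 6 genes of satellite cells and developing fibres were lower. In that fit 48.4% of all tested genes were lower. With the block and median-of-ratios scaling together, 5 of 6 fibroblast genes and 6 of 6 macrophage genes were lower. The counts were 5 of 6 for satellite cells and developing fibres, 3 of 6 for endothelial genes and 0 of 3 for adipocyte genes. Of the 8 fibre genes 1 was lower, *Myh2* (limma, adjusted p = 0.0493), and 4 were higher, as was 1 endothelial gene. In this combined fit 15.8% of all tested genes were lower and 13.4% higher. The part of these cells and fibres in the levels of *Idh2*, *Pdk3* and *Slc25a5* was not tested.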

How the data were processed

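RNA-seq libraries (TruSeq RNA Sample Prep v2, reads of 100 bp, NovaSeq 6000) were made from 6 TA muscles. Per the labels and methods, the authors trimmed the reads, mapped these in CLC Genomics Workbench 20.0.4 to GRCm39, and deposited TPM for 41709 genes. The RNA input differs between the labels and the methods. Whether counting used strand is not given in the sources used here, and 21 members have an exon that overlaps one of another gene on the other strand.

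Members were matched by symbol, and members, lists and tests were chosen with earlier results of these data known. For genes whose mean TPM was 1 or more, log2(TPM + 1) was compared in limma 3.58.1 (R 4.3.3, empirical Bayes with trend, unpaired) with Benjamini-Hochberg adjustment over 11611 genes. Single values were compared by exact permutation tests (scipy 1.17.1). The p-values measure the spread between 3 muscles a group. Every member is named, and values in all libraries are given for members past the test or without overlap, up to 12 by distance from the median of all genes, and for the kinases. Values of *Idh3a*, *Pdha1*, *Mpc1* and *Slc25a4* were added after they were seen, as were the shares and ratios.

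The methods state that contralateral muscles were compared, and both groups share replicate numbers. Across genes, the deviations of same-numbered libraries from their group means had correlations of 0.363, 0.528 and 0.356, so that the numbers were taken as pairs in a fit with the replicate block. Alternatives were other filters, a pseudocount of 0.1, 3 other scalings, limma without the trend, the Kruskal-Wallis test and each library left out. *Nnt* and *Lyrm5*, on lists drawn up here, were not analysed here.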

Additional observations from a re-analysis of the deposited data

How the results depend on the processing

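The direction of *Idh2*, *Pdk3*, *Mdh1*, *Pdhb*, *Dlst*, *Dlat* and *Got2* was the same under every alternative run, and each of the other members turned under at least 1. The 3 members lower became 9 with the replicate block, 2 with median-of-ratios scaling, quantile normalization, rescaling without mitochondrial genome and rRNA genes, or limma without the trend, and 1 with a minimum mean TPM of 5, where *Pdk3* and *Pdp2* were not tested. With no filter or in the Kruskal-Wallis test, whose smallest unadjusted p is 0.0495, it was 0. With the replicate block and median-of-ratios scaling the members higher became 7. The median log2 fold change of the members was -0.24 as deposited, 0.13 with median-of-ratios scaling with or without the block, -0.026 with quantile normalization and -0.051 with rescaling, and the median of all genes was then -0.0047, 0.038 and -0.18. Leaving out 1 library in turn gave 0 to 19 members lower, 0 higher and medians from -0.32 to -0.19. The 0 came without LrpprcWT replicate 3, the 19 without LrpprcWT replicate 2, and 1 each without LrpprcWT replicate 1 and LrpprcP27A replicate 3. The cause was not tested. *Pdhb* passed only with a pseudocount of 0.1, the block or without LrpprcWT replicate 2. On the deposited scale, the replicate block changed no call of a member other than the 6 it added.

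With median-of-ratios scaling, with or without the block, the log2 fold changes that turned above 0 were *Pdk2* 0.36, *Suclg2* 0.32, *Slc25a12* 0.31, *Slc25a4* 0.30, *Suclg1* 0.26, *Idh3b* 0.19, *Fh1* 0.19, *Pdk4* 0.19, *Pdp1* 0.19, *Idh3a* 0.15, *Slc25a11* 0.14, *Idh3g* 0.14, *Pdha1* 0.13, *Mdh2* 0.12, *Pdp2* 0.12, *Got1* 0.11, *Sucla2* 0.094, *Pdhx* 0.088, *Ogdh* 0.085, *Dld* 0.082 and *Cs* 0.073. With quantile normalization these were *Suclg2* 0.28, *Pdp2* 0.26, *Pdk2* 0.22, *Slc25a12* 0.18, *Suclg1* 0.14, *Pdp1* 0.13, *Fh1* 0.055, *Pdk4* 0.052, *Idh3a* 0.029 and *Idh3b* 0.0062. With rescaling without mitochondrial genome and rRNA genes they were *Pdk2* 0.17, *Suclg2* 0.15, *Slc25a12* 0.13, *Slc25a4* 0.11, *Suclg1* 0.077, *Pdp2* 0.022, *Idh3b* 0.008, *Fh1* 0.0074, *Pdp1* 0.0055 and *Pdk4* 0.0037. With each library left out in turn, *Pdk1* lay between -0.013 and 0.13, *Pdk2* lay between -0.054 and 0.012, *Pdk4* lay between -0.81 and 0.60, *Mpc1* lay between -0.031 and 0.057, *Mpc2* lay between -0.036 and 0.099, *Suclg2* lay between -0.10 and 0.015 and *Slc25a4* lay between -0.14 and 0.0074. TPM keep no depth, so that counting error cannot be given.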

Other observations

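The profile of *Pdk4* over the 6 muscles was shared by few genes. Among 1474 genes that had a mean TPM of 5 or more and a range of at least 1 on the log2 scale, 7 had a Pearson correlation with *Pdk4* over 0.9, a rule chosen after values were seen. The points share their libraries and scaling, and the correlations describe these 6 libraries only. The highest were *Plin5*, which coats lipid droplets in oxidative tissue, with 0.98, *Acot2*, a mitochondrial acyl-CoA thioesterase, with 0.96, and *Fabp3*, the fatty acid binding protein of heart and muscle, with 0.94. *Slc25a34*, a mitochondrial carrier, followed with 0.94, the heat shock gene *Hspa1a* with 0.93, and *Cish*, a suppressor of cytokine signalling, with 0.92.

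*Plin5* stood at 6.40, 15.9 and 19.1 TPM with LrpprcWT and at 5.05, 14.2 and 23.5 TPM with LrpprcP27A. *Fabp3* stood at 674.9, 1216 and 1557 TPM with LrpprcWT and at 464.4, 942.3 and 1216 TPM with LrpprcP27A. In both genes the 2 muscles of replicate 1 were the lowest, and their log2 fold changes of -0.05 and -0.42 did not pass the test (limma, adjusted p = 0.935 and 0.379). *Fabp3* was lower in each pair and passed with the replicate block (limma, adjusted p = 0.0066).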
